A study of Danio rerio with 10 samples.

Results

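The genes described here are those of glutathione and thioredoxin chemistry and of the transcription factor NRF2 that regulates much of it, in whole zebrafish embryos exposed to thallium. They were chosen by name: every gene whose symbol begins with gst, prdx or txnl, together with 23 named enzymes, transporters and regulators. The rule found 51 genes among the 32057 that all libraries share, and 49 of them had enough reads to be tested. Gene symbols follow the naming table used, which writes many zebrafish genes with the human symbol, so that GCLC, NFE2L2 and KEAP1 below are zebrafish genes. The symbol GSTM3 stands for 3 of the genes, SOD3 for 2 and prdx1 for 2 in different letter case, and these are told apart by Ensembl ID. The selenium-dependent glutathione peroxidases and thioredoxin reductases are not among the members.

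Wild-type embryos had been kept in thallium nitrate (TlNO3) at 0, 200 or 800 ppb between 6 and 48 hours post fertilisation, with 5, 3 and 2 RNA-seq libraries per dose. The 0 ppb embryos were given no thallium, and the labels name no other treatment. Thallium is a heavy metal whose single-charged ion resembles potassium and which also binds thiols. A hospital sequencing core built replicate 1 of 0 and of 200 ppb, and a commercial provider built the other 8 libraries. The libraries held 12.1 to 48.3 megareads. They were sorted into 4 library batches without use of the dose. Batch 1 is the hospital core, set by its label. The provider's 8 libraries were split by a technical ratio of both deposited data sets into 3 clusters, a number set by hand. Batches 2 and 3 each hold 1 library at 200 ppb and 1 at 0 ppb, and batch 4 holds both libraries at 800 ppb with replicates 4 and 5 of 0 ppb. Whether the replicates are separate clutches is not in the labels; p-values then measure only how these samples vary, and that variation may be technical.

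Glutathione is a tripeptide built in a pair of steps, the first and rate-limiting by glutamate-cysteine ligase and the second by glutathione synthetase. Glutathione transferases attach it to reactive compounds and transporters export the conjugates, while peroxiredoxins, catalase and superoxide dismutases remove peroxides and superoxide, and glutathione reductase and the thioredoxin system restore the thiols with NADPH. KEAP1 holds NRF2 low in resting cells; electrophiles and thiol-reactive metals release NRF2, which raises transcription of many of these enzymes. Zebrafish carry a duplicate pair of NRF2 genes and of KEAP1 genes.

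With the site of library construction as a term, the smallest unadjusted p at 800 ppb was that of prdx1 (ENSDARG00000058734, 0.00581 in edgeR). GCLC (0.00618) and GCLM (0.0385) followed, the catalytic and the modifier subunit of glutamate-cysteine ligase. With the library batch as a term, GCLC and GCLM had the smallest (0.00112 and 0.0016 in edgeR). Both ligase subunits were higher in both 800 ppb libraries than in every 0 ppb library, by about 1.31-fold and 1.45-fold within batch. Of 16 tested glutathione transferases 1 (gsto1), and of 6 peroxiredoxins 1 (prdx1, ENSDARG00000058734), had both 800 ppb libraries above all those at 0 ppb, against 4.86% of all genes, and the classical NRF2 target NQO1 overlapped. The separation of gsto1 was small and rested on 10 to 32 reads per library. Its log2 fold change was 0.25 ± 0.45 (SE) with the library batch. None of these differences passed the threshold in the test with the site of library construction as a term: 0 of the 49 members had an adjusted p under 0.05 (edgeR quasi-likelihood F-test, adjusted by Benjamini-Hochberg over 20867 genes), of which 0.0431% (9 genes) passed. At an unadjusted p under 0.05 the count was 3 of 49 members, all higher at 800 ppb, against 4.76% of all genes in either direction and 1.96% in that direction. DESeq2 and limma-voom also called 0 of 49, with 0.206% and 0.00958% of all genes. With the library batch in place of the site, 0 of 49 members were called and 0.311% of all genes (65 genes), and 4 of 49 members had an unadjusted p under 0.05, all higher at 800 ppb, against 3.93% of all genes in that direction. In bulk embryos, fewer cells of a type and less RNA per cell cannot be told apart.

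**Figure D1:**
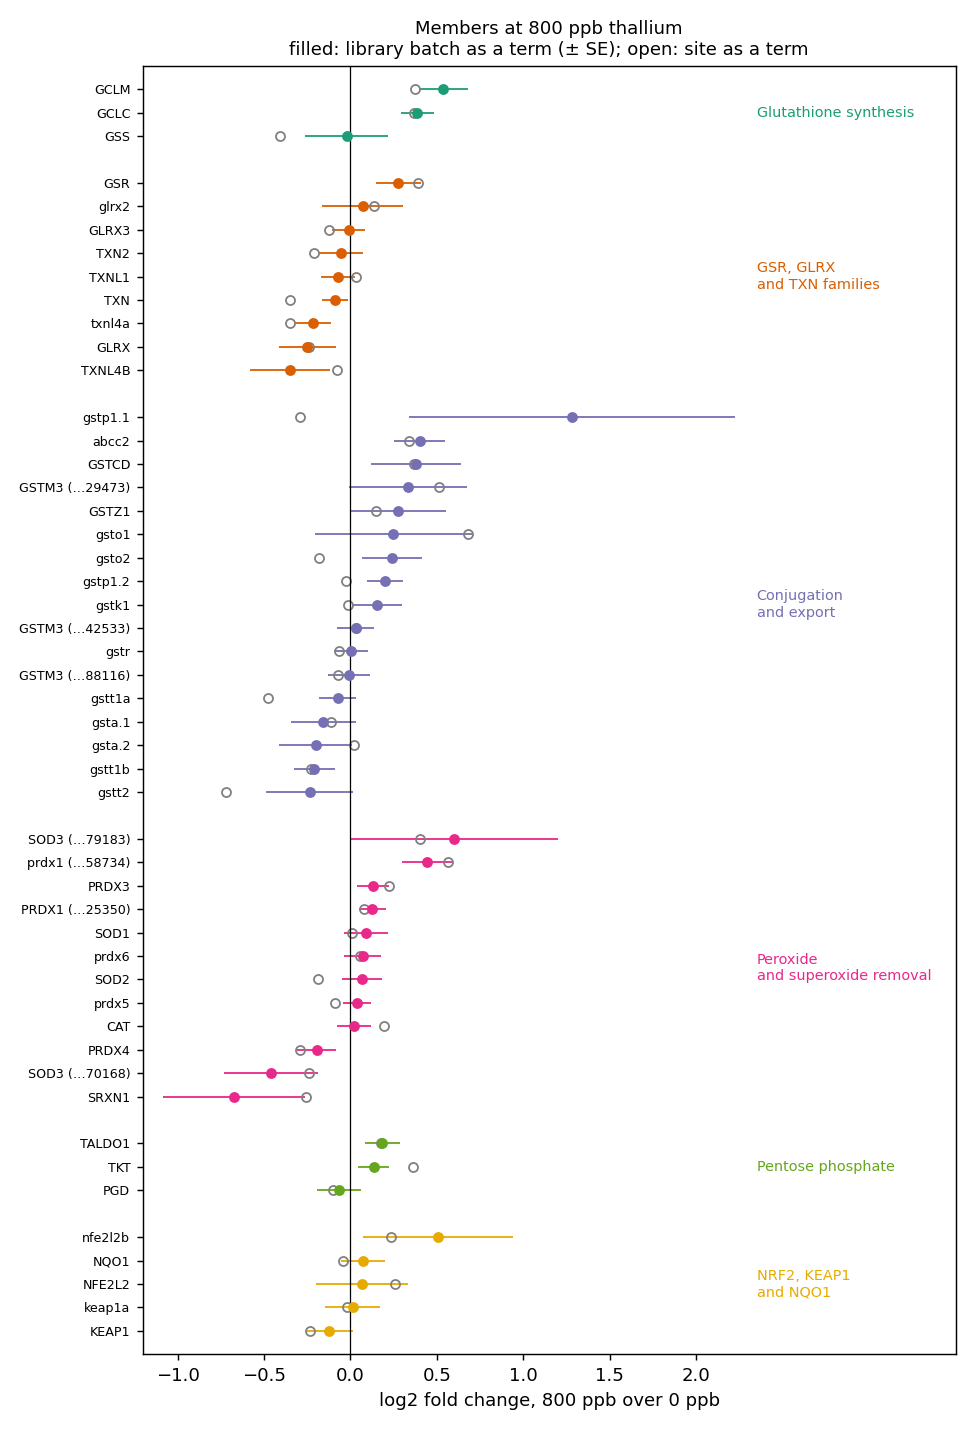
log2 fold change at 800 ppb over 0 ppb of the 49 tested members, grouped by role. Filled points with bars give the estimate ± SE with the library batch as a term, and open points the estimate with the site as a term. GCLC, GCLM, GSR and prdx1 (ENSDARG00000058734) are among those to the right of 0 under both terms, and GSS lies to the left. The transferases and peroxide-removing genes lie on both sides of 0, and gstp1.1, with few reads, has the widest bar.

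GCLC (ENSDARG00000013095) had 47.2 and 49.6 CPM (read counts per megaread of the TMM-scaled total) in the 800 ppb libraries, against 32.5, 37.5, 39.9, 37.2 and 36.8 CPM in replicates 1 to 5 of 0 ppb. Both 800 ppb libraries stood above every other library, and the groups did not overlap. At 200 ppb the gene had 34.7, 37.0 and 37.1 CPM, inside the range at 0 ppb. The log2 fold change at 800 ppb over 0 ppb was 0.37 ± 0.11 (SE) with the site term (adjusted p = 0.93 in edgeR) and 0.39 ± 0.10 with the library batch (adjusted p = 0.177 in edgeR); the unadjusted p was 0.00618 and 0.00112.

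GCLM (ENSDARG00000018953) had 17.2 and 18.1 CPM in the 800 ppb libraries, against 15.4, 16.0, 13.4, 12.0 and 12.2 CPM at 0 ppb. The lowest 0 ppb values were those of replicates 4 and 5, which share batch 4 with the 800 ppb libraries, so the difference was larger within the batch. Its log2 fold change was 0.37 ± 0.16 with the site term (adjusted p = 0.93 in edgeR) and 0.54 ± 0.14 with the library batch (adjusted p = 0.22 in edgeR). The 200 ppb libraries, at 15.7, 15.7 and 15.6 CPM, lay within the 0 ppb range, and their log2 fold change over 0 ppb was 0.07 ± 0.10 with the library batch.

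GSS (ENSDARG00000037706), the glutathione synthetase of the second step, did not follow the ligase subunits. It had 3.29 and 3.71 CPM at 800 ppb, against 10.4, 6.16, 4.38, 3.46 and 3.62 CPM at 0 ppb. Its level followed the batch: the batch 4 libraries at 800 and at 0 ppb overlapped, and the log2 fold change was -0.41 ± 0.29 with the site term but -0.02 ± 0.24 with the library batch. Libraries at 200 ppb had 11.1, 8.07 and 6.13 CPM, each above the 0 ppb library of its own batch, with a log2 fold change of 0.50 ± 0.23 with the site term and 0.29 ± 0.15 with the library batch (adjusted p = 1 in edgeR for both). It was the only member with an unadjusted p under 0.05 at 200 ppb with the site term (0.0472), where 0.575% of all genes reached that level.

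A further fit, chosen after the data were seen, treated the libraries as 5 pairs within batches. In it GCLC (adjusted p = 0.0194) and GCLM (adjusted p = 0.0426) passed the threshold in edgeR, 2 of 49 members, against 0.858% of all genes called higher and 1.31% called in all. The pairs of the 800 ppb libraries with 0 ppb libraries were picked from the counts because their deviations correlated (r = 0.35 across genes, and -0.35 for the crossed pairs, equal in size by construction), which lowers the residual spread, so these p-values are too small. With the pairs crossed, 0 of 49 members were called, and 0.24% of all genes. Within the paired fit, leaving out each of the 10 libraries in turn kept GCLC past the threshold in 6 fits and GCLM in 2. GCLC lost it without replicate 4 or 5 of 0 ppb or either replicate of 800 ppb (highest adjusted p = 0.323 in edgeR).

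**Figure D2:**
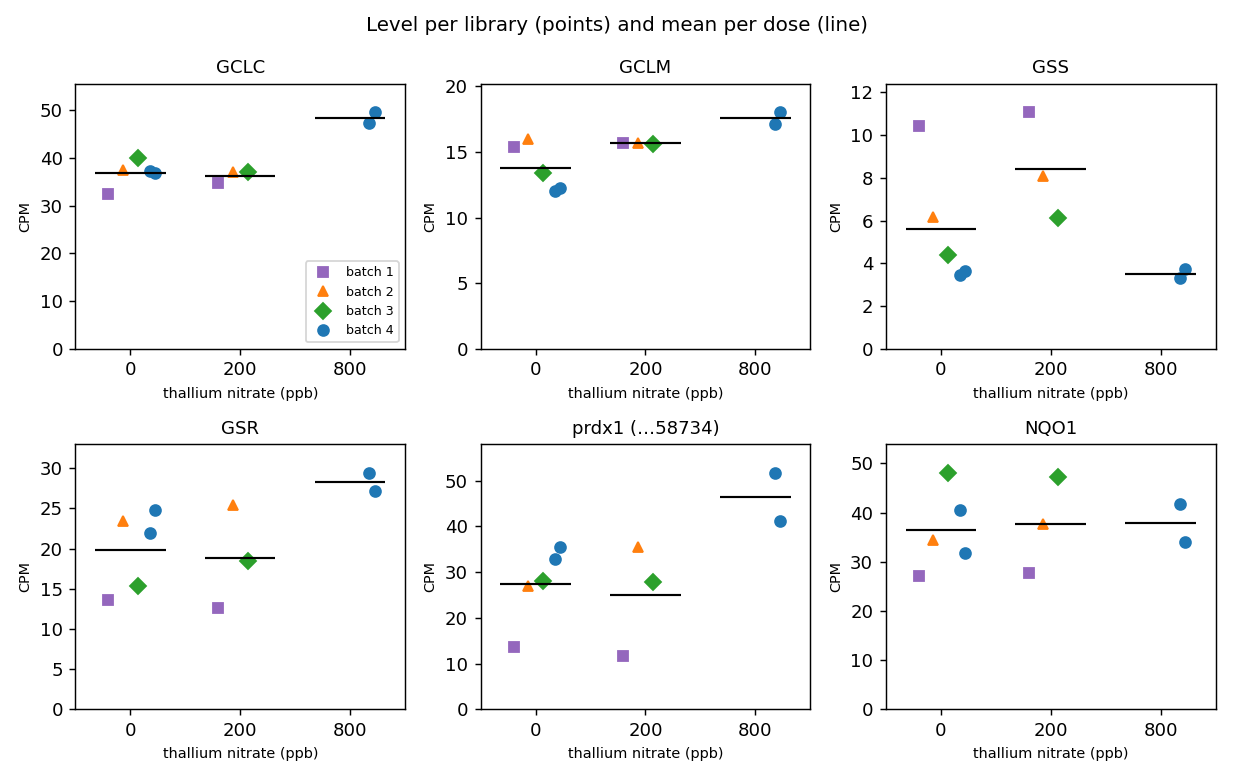
CPM of 6 members in each library (points, marked by library batch) and the mean per dose (line), over thallium nitrate in ppb. In the GCLC and GCLM panels both 800 ppb points lie above all 5 points at 0 ppb, GSS is highest in batch 1 and lowest in batch 4, and the NQO1 points at 800 ppb lie within the spread at 0 ppb.

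Glutathione reductase, the glutaredoxins and the thioredoxins reduce disulfides, and the group also holds thioredoxin-like genes, of which txnl4a and TXNL4B encode proteins of the splicing machinery. Of these 9 genes, none passed the test at 800 ppb, and their median log2 fold change was -0.12 with the site term and -0.07 with the library batch, against -0.01 and 0.00 for all genes tested. GSR (ENSDARG00000019236), the glutathione reductase, was the highest: 29.4 and 27.1 CPM at 800 ppb, against 13.7, 23.4, 15.3, 22.0 and 24.8 CPM at 0 ppb. Both 800 ppb libraries lay above all 0 ppb libraries, by a small margin over those of batch 4, and the log2 fold change was 0.39 ± 0.20 with the site term and 0.28 ± 0.13 with the library batch (adjusted p = 0.93 and 0.681 in edgeR). At 200 ppb GSR had 12.6, 25.4 and 18.5 CPM, lower than its pair in batch 1 and higher in batches 2 and 3.

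TXN (ENSDARG00000031435), cytosolic thioredoxin, had 136 and 141 CPM at 800 ppb, against 38.5, 205, 194, 151 and 144 CPM at 0 ppb. The 800 ppb values sat just under those of batch 4 at 0 ppb, and the low 0 ppb value is the hospital core library. Its log2 fold change was -0.35 ± 0.16 with the site term and -0.09 ± 0.07 with the library batch. At 200 ppb it had 35.8, 211 and 187 CPM, which paired closely with replicates 1 to 3 of 0 ppb. TXNL4B (ENSDARG00000058962) had 2.75, 3.85 and 4.65 CPM at 200 ppb and 5.18 and 4.81 CPM at 800 ppb, against 2.72, 3.30, 5.60, 6.59 and 6.19 CPM at 0 ppb. Its direction at 200 ppb differed between pairs, and both 800 ppb values lay below those of batch 4 at 0 ppb. The glutaredoxins GLRX, glrx2 and GLRX3, mitochondrial TXN2, TXNL1 and txnl4a had log2 fold changes of -0.25 to 0.07 at 800 ppb with the library batch, and none passed.

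Conjugation and export, the largest group, had no called gene at either dose. Of its 19 genes, 17 were tested; gstk2 and gstk4 had 0 to 0.555 CPM in all libraries and were not. At 800 ppb 0 of 17 passed, and the median log2 fold change was -0.03 with the site term, with 7 genes above 0 and 10 below, and 0.15 with the library batch, with 11 above 0 and 6 below. For the 16 tested transferases without the exporter the medians were -0.05 and 0.09. The median therefore changed sign with the term used, and the split of genes moved with it.

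gstt1a (ENSDARG00000042428), a theta-class transferase, had 38.2 and 34.1 CPM at 800 ppb, against 16.9, 48.9, 70.7, 41.0 and 35.2 CPM at 0 ppb. gstt2 (ENSDARG00000095464), of the same class, had 3.92 and 3.54 CPM at 800 ppb, against 4.02, 5.10, 9.71, 3.63 and 5.13 CPM at 0 ppb. The 800 ppb values of gstt1a lay within the 0 ppb range, and those of gstt2 overlapped it, with replicate 2 of 800 ppb just below every 0 ppb library. The log2 fold changes of -0.48 ± 0.25 and -0.72 ± 0.43 with the site term became -0.07 ± 0.11 and -0.23 ± 0.25 with the library batch. At 200 ppb gstt1a had 15.2, 50.7 and 67.2 CPM and gstt2 had 3.86, 5.03 and 11.7 CPM, both highest in the same batch 3 as at 0 ppb. The alpha-class gsta.1 (ENSDARG00000090228) had 14.5, 33.8 and 21.9 CPM at 200 ppb and 19.1 and 23.2 CPM at 800 ppb, against 14.8, 21.2, 20.8, 27.5 and 19.6 CPM at 0 ppb. At 200 ppb 1 of 3 libraries was well above its batch, and at 800 ppb the values overlapped those at 0 ppb.

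gstp1.2, a pi-class gene whose zebrafish locus is a known target of Nrf2, had 203 and 164 CPM at 800 ppb, against 71.0, 206, 203, 170 and 149 CPM at 0 ppb, an overlap, with a log2 fold change of -0.03 ± 0.16 with the site term and 0.20 ± 0.10 with the library batch (adjusted p = 0.985 and 0.721 in edgeR). The related gstp1.1 had 1.61 and 0.0843 CPM at 800 ppb, against 0.219, 0.933, 2.70, 0.591 and 0.151 CPM at 0 ppb, so that its fold change, -0.29 with the site term and 1.28 with the library batch on the log2 scale, rests on few reads. abcc2, which exports glutathione conjugates, had 37.8 and 29.2 CPM at 800 ppb, against 17.2, 36.0, 19.1, 27.8 and 23.1 CPM at 0 ppb; it overlapped at replicate 2 of 0 ppb, lay above batch 4, and had a log2 fold change of 0.40 ± 0.15 with the library batch (adjusted p = 0.538 in edgeR). These 3 genes were singled out after their values were seen. The other tested gst genes, including the 3 genes named GSTM3 and the omega, kappa, zeta and rho classes, had log2 fold changes of -0.21 to 0.38 at 800 ppb with the library batch. The highest of these was GSTCD (0.38 ± 0.26), which is counted among the transferases by its symbol alone. Near-identical copies within the alpha, mu and pi classes may share reads, and how the authors' counting divided them is not given in the sources used here.

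Peroxide and superoxide removal had 0 of 12 genes called at 800 ppb and a median log2 fold change of 0.03 with the site term and 0.07 with the library batch. Of the 12 genes, 7 were above 0 with the site term and 9 with the library batch, against 48% and 50.5% of all genes. The smallest unadjusted p in the group was that of prdx1 (ENSDARG00000058734), a thiol peroxidase of the peroxiredoxin family (0.00581 with the site term and 0.00819 with the library batch in edgeR). It had 51.7 and 41.1 CPM at 800 ppb, against 13.7, 26.9, 28.0, 32.9 and 35.4 CPM at 0 ppb. The 800 and 0 ppb libraries did not overlap. At 200 ppb the libraries had 11.6, 35.6 and 27.9 CPM, and replicate 2 lay just above every 0 ppb library. Their log2 ratios to the 0 ppb library of the same batch were -0.24, 0.40 and -0.0053 in replicates 1 to 3. The log2 fold change of prdx1 at 800 ppb was 0.57 ± 0.17 with the site term and 0.44 ± 0.14 with the library batch (adjusted p = 0.93 and 0.451 in edgeR). In the paired edgeR fit its adjusted p was 0.0671.

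The gene that shares the name, PRDX1 (ENSDARG00000025350), had 273 and 276 CPM at 800 ppb, against 122, 293, 235, 266 and 237 CPM at 0 ppb, with overlap and a log2 fold change of 0.13 ± 0.08 with the library batch. PRDX4 (ENSDARG00000069013), the peroxiredoxin of the endoplasmic reticulum, had 43.1 and 42.7 CPM at 800 ppb, against 38.7, 56.8, 49.6, 53.0 and 45.3 CPM at 0 ppb. Both 800 ppb libraries lay below those of batch 4 at 0 ppb, and the log2 fold change was -0.29 ± 0.15 with the site term and -0.19 ± 0.11 with the library batch. At 200 ppb PRDX4 had 36.1, 70.8 and 54.0 CPM, lower than its pair in batch 1 and higher in batches 2 and 3.

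CAT (ENSDARG00000104702), catalase, had 48.1, 52.6 and 50.5 CPM at 200 ppb, against 50.7, 51.1, 57.0, 73.8 and 62.6 CPM at 0 ppb. The higher 0 ppb values were again those of batch 4, where the 800 ppb libraries had 72.4 and 65.7 CPM, and the log2 fold change at 800 ppb was 0.02 ± 0.10 with the library batch. SRXN1, sulfiredoxin, which restores over-oxidised peroxiredoxins, had 1.05 and 1.1 CPM at 800 ppb, below the 1.69 and 1.74 CPM of batch 4 at 0 ppb, with a log2 fold change of -0.67 ± 0.41 with the library batch. At 200 ppb it was higher than its pair in 3 of 3 batches, at low counts and with no call at either dose. SOD1, SOD2, PRDX3, prdx5 and prdx6 had log2 fold changes of 0.04 to 0.13 at 800 ppb with the library batch. The SOD3 genes, for extracellular superoxide dismutases, were at -0.46 ± 0.27 (ENSDARG00000070168) and 0.60 ± 0.60 (ENSDARG00000079183) with the library batch. ENSDARG00000079183 had few reads, 7 to 24 per library. ENSDARG00000070168 had 29 to 453 reads, and both its 800 ppb libraries lay below those of batch 4 at 0 ppb.

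The pentose phosphate pathway, of which PGD makes NADPH while TKT and TALDO1 belong to the non-oxidative branch, gave a median log2 fold change of 0.17 with the site term and 0.13 with the library batch at 800 ppb over 3 genes, with none called. TKT (ENSDARG00000029689), transketolase, had 66.8 and 67.4 CPM at 800 ppb, against 43.5, 34.6, 57.0, 57.7 and 64.5 CPM at 0 ppb, above all 0 ppb libraries but by little over replicate 5. TALDO1 (ENSDARG00000103369), transaldolase, had 114 and 92.4 CPM at 800 ppb, against 74.5, 107, 72.5, 94.2 and 87.2 CPM at 0 ppb, with overlap. Their log2 fold changes with the library batch were 0.13 ± 0.09 and 0.18 ± 0.10. At 200 ppb TKT had 46.1, 32.7 and 56.4 CPM, each near its pair at 0 ppb, and PGD (ENSDARG00000015343), phosphogluconate dehydrogenase, had 37.5, 53.4 and 55.1 CPM, against 39.5, 59.7, 56.0, 51.8 and 57.7 CPM at 0 ppb, lower than its pair in 3 of 3 batches. PGD had 44.1 and 61.0 CPM at 800 ppb, one below and one above the batch 4 libraries at 0 ppb, with a log2 fold change of -0.10 ± 0.14 with the site term and -0.07 ± 0.13 with the library batch. TALDO1 had 70.04, 109 and 82.9 CPM at 200 ppb, lower than its pair in batch 1 and higher in batches 2 and 3.

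The regulators themselves did not separate by dose. NFE2L2 (ENSDARG00000042824), which encodes NRF2, had 89.8 and 43.1 CPM at 800 ppb, against 56.8, 50.7, 50.6, 82.2 and 45.7 CPM at 0 ppb. Replicate 1 of 800 ppb and replicate 4 of 0 ppb, both of batch 4, were high, and the other 2 libraries of that batch were low, so that the doses overlapped, and the log2 fold change was 0.07 ± 0.26 with the library batch. KEAP1 (ENSDARG00000074634), its inhibitor, had 24.4 and 19.5 CPM at 800 ppb, against 32.2, 38.5, 16.1, 24.8 and 23.1 CPM at 0 ppb, a full overlap. At 200 ppb NFE2L2 had 60.5, 43.1 and 46.0 CPM, higher than its pair in batch 1 and lower in batches 2 and 3, with replicate 2 below every 0 ppb library. KEAP1 had 31.4, 34.8 and 19.5 CPM at 200 ppb, all within the 0 ppb range.

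NQO1 (ENSDARG00000010250), a quinone reductase and a standard readout of NRF2 activity, had 41.7 and 34.0 CPM at 800 ppb, against 27.1, 34.4, 48.1, 40.6 and 31.7 CPM at 0 ppb, with a log2 fold change of -0.04 ± 0.18 with the site term and 0.07 ± 0.13 with the library batch. At 200 ppb it had 27.7, 37.8 and 47.3 CPM, close to the 0 ppb library of each batch. The paralogs nfe2l2b and keap1a had log2 fold changes of 0.51 ± 0.43 and 0.01 ± 0.16.

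Separations were also counted over all members. Both 800 ppb libraries lay above all 5 at 0 ppb for 7 of 49 members, against 4.86% of all genes tested: GCLC, GCLM, GSR, gsto1, prdx1 (ENSDARG00000058734), SOD3 (ENSDARG00000079183) and TKT. They lay below all 5 for 0 of 49 members, against 3.8% of all genes. These counts cannot be set against each other as directions of a dose effect. Replicate 1 of 0 ppb is a hospital core library, and 29 of 49 members were lower in the core (16.4% of all genes). A low value there makes lying below all 5 harder and does not hinder lying above. The separations of gsto1 and SOD3 (ENSDARG00000079183) rested on few reads, 10 to 32 and 7 to 24 per library. Within batch 4 alone, 12 of 49 members were higher in both 800 ppb libraries (16.5% of all genes) and 7 were lower (16.3% of all genes). Over all 49 members the median log2 fold change at 800 ppb was -0.02 with the site term and 0.07 with the library batch, against 0.37 and 0.39 for the 3 synthesis genes. With both terms the median of those 3 was GCLC's own value, with GSS at -0.41 and -0.02. The sign of the fold change differed between both terms for 11 of 49 members, among them NQO1, keap1a, SOD2, gstp1.1 and gstp1.2. The share of all genes whose sign differed is not given here, so that count cannot be read as particular to the members. A contrast between role groups was described and not tested, since the members were chosen with results known.

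At 200 ppb, no member was called with the site, batch or paired terms, against 0%, 0% and 0.00479% of the 20867 genes, and 120 genes had an unadjusted p under 0.05 with the site term; DESeq2 and limma-voom called 0 as well, and a fit of the 0 and 200 ppb libraries with the replicate number as a block called 0 of 49 members and 0.00989% of all genes. The comparison of 800 with 200 ppb called 0 of 49 members with the site term and 0% of all genes, with 1852 genes and 8 members at an unadjusted p under 0.05 (8.88% of all genes). With the library batch it called 0 of 49 members and 0.0767% of all genes, with 4 members at an unadjusted p under 0.05 (4.33% of all genes). With the site term dose and batch cannot be told apart in that comparison, since batch 4 holds every 800 ppb library and none at 200 ppb. Median log2 fold changes at 200 over 0 ppb were 0.17 for synthesis, 0.05 for conjugation and export, and 0.04 for peroxide and superoxide removal with the site term, and 0.07, -0.02 and 0.01 with the library batch. Compared with the 0 ppb library of its own batch, 200 ppb was higher in 3 of 3 pairs for 4 of 49 members (11.6% of all genes), namely GSS, TXNL1, gstk1 and SRXN1, and lower in 3 of 3 for 5 of 49 (12.4% of all genes), namely TXN2, txnl4a, gsto2, gstr and PGD. With the site term, the comparisons of both doses with 0 ppb share their control libraries. With the library batch, each dose is set against the 0 ppb libraries of its own batches.

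Other genes of the pathway came from lists of cysteine supply and glutathione turnover, of further NRF2 targets and regulators, and of microsomal glutathione transferases. These lists were chosen with earlier results of these data known. Counts of their called or separated genes therefore cannot be read as an excess over the shares of all genes set beside them. In cysteine supply and turnover, 17 of 19 genes were tested at 800 ppb; 0 passed with the site term and 2 with the library batch, both higher, where 0.235% of all genes were. These were SLC3A2 (ENSDARG00000037012), the heavy chain that partners the cystine carrier and other amino acid transporters, and cbsb, a cystathionine beta-synthase of the route that makes cysteine from homocysteine. The related slc3a2a and CBS (ENSDARG00000053500) had log2 fold changes of 0.18 ± 0.11 and -0.07 ± 0.22 with the library batch and did not pass. slc7a11, the cystine carrier, and the gamma-glutamyl transferases that recycle glutathione did not pass. Both 800 ppb libraries lay above all at 0 ppb for 5 of the 17 genes (4.86% of all genes). They lay below all for 2 (3.8% of all genes), among them the transferase ggt5a at -0.33 ± 0.14 with the library batch.

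SLC3A2 had 136 and 104 CPM at 800 ppb, against 44.2, 85.8, 87.5, 83.2 and 65.4 CPM at 0 ppb, with no overlap. Its log2 fold change was 0.69 ± 0.12 with the library batch (adjusted p = 0.0239 in edgeR) and 0.56 ± 0.15 with the site term (adjusted p = 0.896 in edgeR). cbsb had 91.1 and 84.4 CPM at 800 ppb, against 54.6, 78.1, 78.3, 63.6 and 66.0 CPM at 0 ppb, again apart, with a log2 fold change of 0.44 ± 0.09 with the library batch (adjusted p = 0.0446 in edgeR) and 0.30 ± 0.12 with the site term (adjusted p = 0.93 in edgeR). At 200 ppb SLC3A2 had 48.6, 90.8 and 96.9 CPM and cbsb 57.7, 73.3 and 75.6 CPM. Leaving out each library in turn in the batch fit kept the call of SLC3A2 in 2 of 10 fits and of cbsb in 1 of 10.

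CTH (ENSDARG00000074301), cystathionine gamma-lyase, the next enzyme of that route, had 54.6 and 56.2 CPM at 800 ppb, against 30.6, 36.2, 44.2, 38.3 and 41.4 CPM at 0 ppb, with no overlap and an adjusted p of 0.0598 in edgeR with the library batch (log2 fold change 0.48 ± 0.10). The paired fit, whose p-values are too small as stated above, also called CTH (adjusted p = 0.00147 in edgeR), so that 3 of the 17 genes were called higher in it, against 0.858% of all genes. At 200 ppb cbsb and CTH had log2 fold changes of -0.02 and -0.01 with the library batch. SLC3A2 was higher at 200 ppb than its pair in 3 of 3 batches, with a log2 fold change of 0.12 ± 0.10 with the library batch, and was not called; its unadjusted p was 0.234 with the library batch and 0.0337 in the paired edgeR fit. slc7a11 had 9.53 and 4.72 CPM at 800 ppb, against 7.01, 3.05, 3.91, 5.49 and 4.38 CPM at 0 ppb, with overlap. Its log2 fold change at 800 ppb was 0.55 ± 0.31 with the library batch and 0.87 ± 0.34 with the site term. With the site term its unadjusted p was 0.0251 and its adjusted p 0.93 in edgeR. CHAC1, which degrades glutathione, had 0 reads in all libraries. Another gene named CTH (ENSDARG00000032206) had few reads. Its log2 fold change at 800 ppb was -0.57 ± 0.78 with the site term and 0.35 ± 0.60 with the library batch.

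Of the 32 other NRF2 targets and regulators, all tested, 1 passed with the library batch and 0 with the site term, against 0.311% and 0.0431% of all genes. The gene was cbr1l, a carbonyl reductase, with 44.5 and 35.8 CPM at 800 ppb, against 14.2, 22.1, 24.8, 25.3 and 20.8 CPM at 0 ppb, no overlap, and a log2 fold change of 0.81 ± 0.14 with the library batch (adjusted p = 0.0168 in edgeR; 0.143 with the site term). At 200 ppb it had 13.7, 23.6 and 22.1 CPM. Its call at 800 ppb held in 8 of 10 batch fits that each left out a library, and was lost without replicate 5 of 0 ppb or replicate 1 of 800 ppb. fth1a, a ferritin heavy chain, had 946 and 799 CPM at 800 ppb, against 337, 505, 664, 730 and 657 CPM at 0 ppb. Its log2 fold change was 0.33 ± 0.08 with the library batch (adjusted p = 0.177 in edgeR). In the paired edgeR fit fth1a was called too (adjusted p = 0.000214). That fit called 2 of the 32 genes, both higher, against 0.858% of all genes called higher. HMOX1, the heme oxygenase often used as an oxidative stress marker, was not called. Its log2 fold change at 800 ppb was -0.695 ± 0.520 with the site term and -0.32 ± 0.27 with the library batch. Of 3 microsomal transferases 0 passed. MGST2 had 17.6 and 11.3 CPM at 800 ppb and 6.78, 9.5 and 12.2 CPM at 200 ppb, against 8.33, 8.83, 11.7, 13.7 and 9.96 CPM at 0 ppb. MGST3 had 34.5 and 25.1 CPM at 800 ppb and 11.1, 42.5 and 47.2 CPM at 200 ppb, against 12.6, 40.4, 50.2, 37.8 and 29.4 CPM at 0 ppb. Both overlapped, with log2 fold changes at 800 ppb of 0.30 ± 0.22 and -0.17 ± 0.15 with the library batch.

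**Figure D3:**
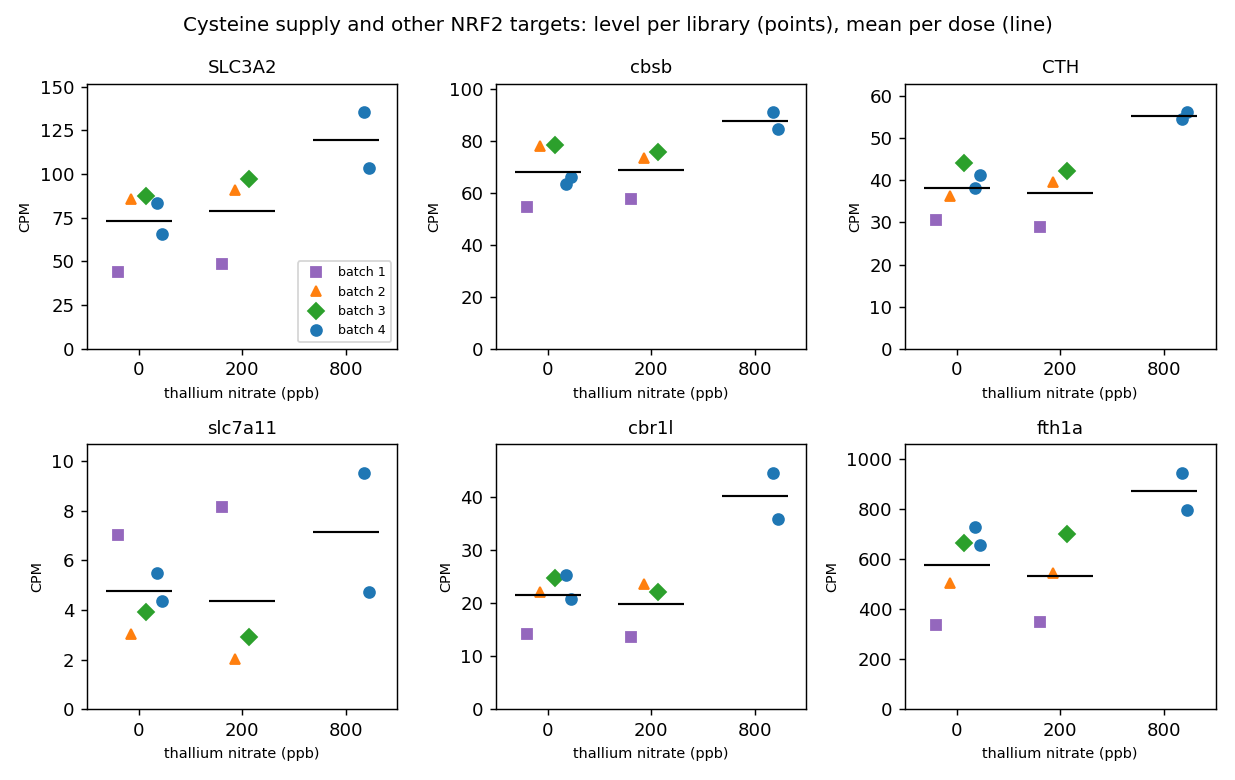
CPM of 6 genes of cysteine supply and other NRF2 targets in each library (points, marked by library batch), with the mean per dose (line), over thallium nitrate in ppb. SLC3A2, cbsb, CTH, cbr1l and fth1a have both 800 ppb points above all points at 0 ppb, while slc7a11 overlaps.

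More members differed between the sites of library construction than between doses. Between the hospital core and the provider 31 of 49 members differed at an adjusted p under 0.05 in edgeR, against 33.9% of all genes: 29 were lower in the hospital core libraries (16.4% of all genes) and 2 higher (17.6% of all genes). The lowest were SOD1, with 6.30 CPM at 200 ppb and 6.50 CPM at 0 ppb in the core, against 42.9 to 57.6 CPM in the provider's libraries, and GLRX and TXN, with log2 differences of -3.03, -3.01 and -2.30 for the 3 genes, core minus provider. GSS and SOD3 (ENSDARG00000070168) were the 2 higher ones. GCLC, GCLM, NFE2L2 and KEAP1 did not pass in that comparison. All 800 ppb libraries came from the provider. The hospital core libraries were replicate 1 of 0 and of 200 ppb and alone made up batch 1. A difference between sites therefore cannot be told apart from one between batches or sets of embryos.

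**Figure D4:**
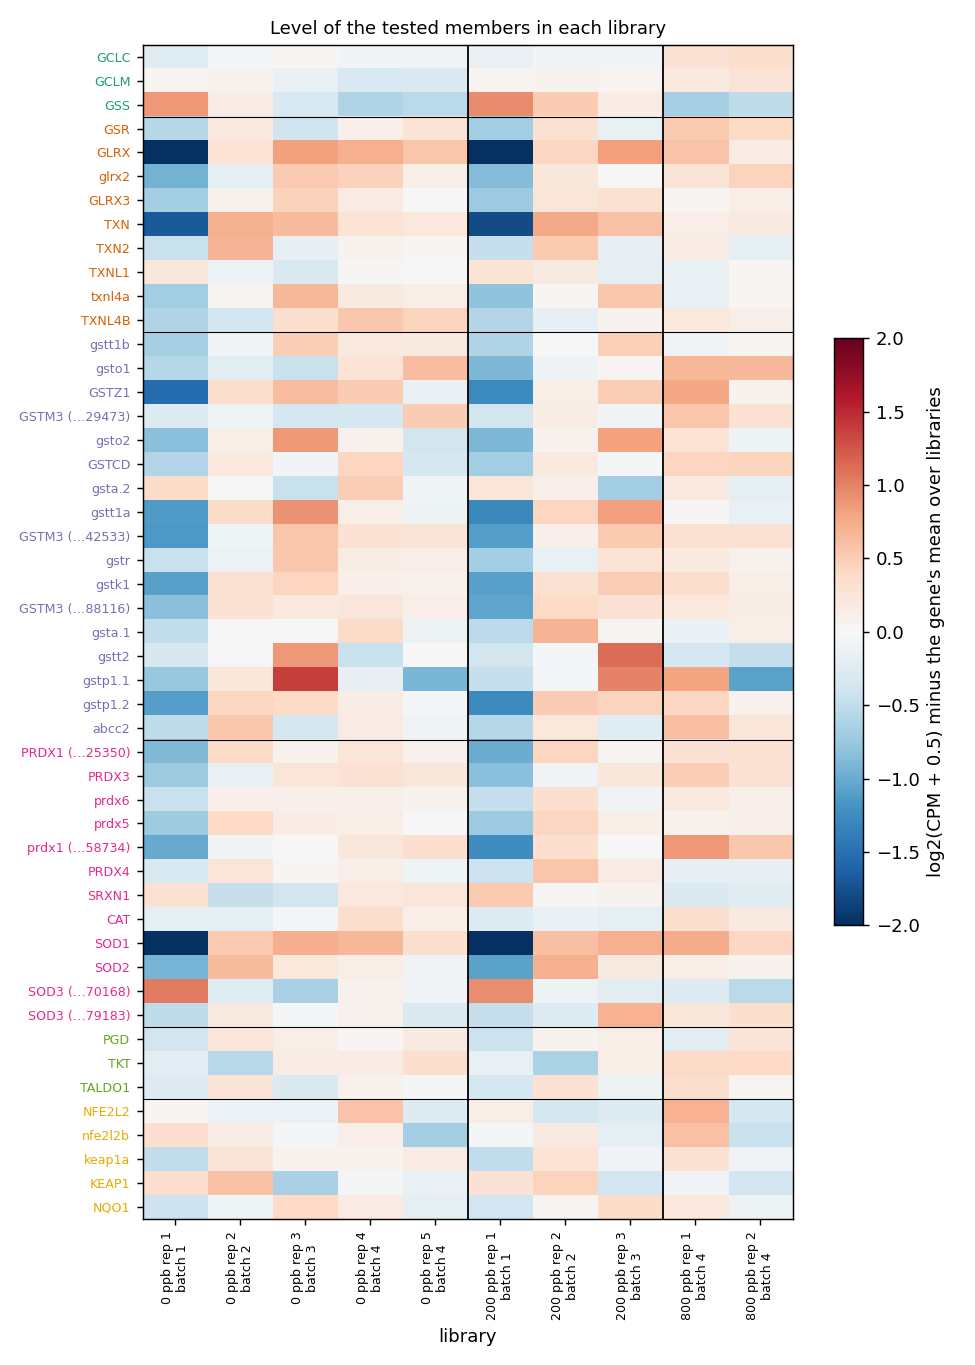
log2(CPM + 0.5) of each tested member minus its mean over the 10 libraries, libraries in columns by dose and members in rows by role, with red for higher and blue for lower. Replicate 1 of 0 and of 200 ppb, the hospital core libraries of batch 1, are blue for most members, and the columns of 1 batch resemble each other across doses.

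Markers of tissues of the embryo were compared as sums. Summed CPM was 3796 and 4519 at 800 ppb, against 2281 to 5459 at 0 ppb, for 13 liver markers, and 2499 and 2637, against 1183 to 3794, for 9 erythroid markers. For 8 fast muscle and 9 neuronal markers the 800 ppb sums also lay within the 0 ppb range, and for 7 epidermal markers 1 sum lay within it and 1 just below. That range spans both sites and all batches. Within batch 4, both 800 ppb sums lay below both 0 ppb sums for erythroid markers (2639 and 2810 at 0 ppb). The same held for fast muscle markers, with 44710 and 45680 at 800 ppb against 46230 and 47260 at 0 ppb. For liver, epidermal and neuronal markers the batch 4 sums overlapped. All 7 epidermal markers had a log2 fold change below 0 at 800 ppb, with a median of -0.27 with the site term and -0.13 with the library batch, and 7 of 8 fast muscle markers were below 0 with the site term (median -0.22), 6 of 8 with the library batch (median -0.03). No marker list had a gene at 0, and none of the marker genes was called with the site or batch term. The paired fit called 1 epidermal marker lower (0.455% of all genes) and 1 fast muscle marker higher (0.858% of all genes). Their part in the levels of the members was not tested.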

How the data were processed

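RNA-seq of whole zebrafish embryos at 0, 200 and 800 ppb thallium nitrate gave 10 libraries, grouped by their titles. For each library the authors deposited a table of raw read counts by Ensembl gene, which was tested here, and a series table of log2 CPM values, used for the library batches and in an alternative. Per the submitters' processing notes, FastQC, cutadapt, STAR, edgeR and the build GRCz11 were used, without roles or versions; the sources used here name no counter, annotation release or strand setting, so overlapping genes on opposite strands could not be told apart. No sequence or coordinate is printed.

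Counts of the 32057 shared genes were fitted with edgeR 4.0.16 (R 4.3.3): TMM scaling, filterByExpr by dose, dose and site of library construction as terms, quasi-likelihood F-test (two-sided), Benjamini-Hochberg adjustment over 20867 genes, threshold 0.05. The 463 further features of the hospital core's files held 0.339% and 0.342% of their counts and were left out. Depth was 12.1 to 48.3 megareads, and the median SE of a member's log2 fold change at 800 ppb was 0.201 under the site term, 0.129 under the batch term. Batch 1 was set by the site label. The provider's batches were clusters of the log ratio of counts to the linearised series table over 13286 genes. Correlations were 0.917 to 0.959 within and 0.784 to 0.848 between the 3 provider clusters, and the number of clusters was set by hand. Replicate numbers pair 0 and 200 ppb (correlation of deviations from the group mean 0.934, 0.605 and 0.792), but not 800 ppb (-0.225 and 0.0519). The block for 0 and 200 ppb called 0 members and 2 of all genes (0.00989%), against 0 genes without it. Alternatives used DESeq2 1.42.0 and limma 3.58.1; tables and plots used Python 3.11.15, pandas 2.3.3 and matplotlib 3.10.9. Code was tested on simulated counts.

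Members, lists and markers were chosen with earlier results of these data known. Of the named lists, 53 of 58 other entries and 43 of 47 marker entries matched a gene, and 4 members matched without a final paralog letter. Values in every library are given for members called with the site or batch term and, in each role group, for the 2 with the smallest unadjusted p at each dose with the site term; of the other lists, for those called and otherwise the 2 with the smallest p. Further genes named were picked after their values were seen. Intervals are standard errors. For edgeR they were derived from the test, as the absolute log2 fold change divided by the square root of F.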

Additional observations from a re-analysis of the deposited data

Results flagged for a closer look

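Among the 49 members, 5 had a library at 0 ppb that lay apart from the other 4 by Dixon's criterion. Chance meets this rule in about 1 of 20 groups of like libraries, but the 0 ppb libraries come from both sites and all 4 batches. The share of all genes that met it is not given here, so these 5 members cannot be read as an excess. In 3 of them the outlying library was replicate 1, from the hospital core: SOD1 had 6.50 CPM against 42.9 to 57.2 CPM in the others, GSTM3 (ENSDARG00000088116) had 13.0 against 26.0 to 29.0 CPM, and prdx6 had 26.6 against 38.5 to 39.2 CPM. The other two were gstt2, at 9.71 CPM in replicate 3 against 3.63 to 5.13 CPM, and GSTM3 (ENSDARG00000029473), at 4.08 CPM in replicate 5 against 2.02 to 2.55 CPM. For SOD1, GSTM3 (ENSDARG00000088116) and prdx6 the 200 ppb library of the hospital core was low too, with 6.30, 11.1 and 26.1 CPM, and for gstt2 the 200 ppb library of batch 3 was high, with 11.7 CPM.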

How the results depend on the processing

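Leaving out a library, or changing the scaling, filter, test or count set, gave 0 called members at 800 over 0 ppb in each fit whose only term beside dose was the site or the batch, and without such a term. Library pairs, chosen after seeing the data, called 2, and leaving out a library called 0 to 4, above 0 only with pairs; at 800 over 200 ppb that range was 0 to 1. The replicate block with the site term called 15 members at 800 over 0 ppb and 15 at 800 over 200 ppb, where 31.6% and 32.3% of all genes were called and the numbers do not pair the 800 ppb libraries. At 200 over 0 ppb all 44 alternatives called 0, the replicate block included. The 44 fits gave a median log2 fold change of 0.22 to 0.43 for synthesis at 800 ppb, of -0.20 to 0.25 for conjugation and export and of -0.12 to 0.19 for peroxide and superoxide removal.

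Some log2 fold changes turned sign from that of the fit with the site term, and the cause was not tested. With the site term at 200 ppb, TKT was -0.16, TXN 0.12, NQO1 0.11, PRDX4 0.18, TXNL4B -0.24, gsta.1 0.23 and gstt2 0.34. With that term at 800 ppb, NFE2L2 was 0.26, TALDO1 0.17, KEAP1 -0.24, gstt1a -0.48 and gstt2 -0.72. At 200 ppb TKT was 0.0033 with the batch, 0.0080 with the replicate block, 0.0084 with block and site, 0.0081 with pairs, 0.0027 with crossed pairs, 0.0062 with batch in DESeq2 and 0.016 with batch in limma-voom, and -0.38 to 0.082 without a library. TXN was -0.037, -0.035, -0.035, -0.035, -0.037, -0.033 and -0.033 in the same order, -0.018 with no site term, and -0.077 to 0.20 without a library. With block and site, NFE2L2 was -0.16 and TALDO1 -0.21 at 800 ppb. Leaving out a library gave, at 200 ppb, NQO1 -0.010 to 0.19, PRDX4 -0.0031 to 0.29, TXNL4B -0.36 to 0.11, gsta.1 -0.026 to 0.39 and gstt2 -0.16 to 0.59, and at 800 ppb KEAP1 -0.41 to 0.026, MGST2 -0.060 to 0.65, MGST3 -0.69 to 0.038, NFE2L2 -0.57 to 0.69, gstt1a -0.61 to 0.038 and gstt2 -0.88 to 0.11. Both 800 ppb libraries are in batch 4, which holds none at 200 ppb. With the library batch, their comparison with 200 ppb therefore runs through the 0 ppb libraries of batch 4 and of the other batches.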
